A study of Mus musculus with 4 samples.

Results

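The 10 genes described here encode the 3 mammalian HP1 proteins (Cbx1, Cbx3 and Cbx5), the H3K9 methyltransferases Suv39h1, Suv39h2, Setdb1, Ehmt1 and Ehmt2, the corepressor Trim28 and the chromatin remodeller Atrx. They were chosen from the roles of their products together with their measured peaks, since Cbx5 was known to hold the strongest reproducible Foxr2 site, so that their peak counts and folds are given as a description with no test. They are 10 of 21853 protein-coding genes on the assembled chromosomes. In background, heterochromatin is the compact and mostly silent part of the genome, and it is marked by methylation of H3K9. HP1 proteins bind that mark through their chromodomain and recruit the enzymes that write it, which lets the mark spread along the chromatin. In neural cells the same machinery keeps repeats, retroviral elements and genes of other lineages silent.

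Foxr2 is a forkhead family protein. Its binding was mapped by CUT&RUN, in which an antibody directs a nuclease to a protein on the chromatin so that the DNA beside it is released and sequenced. The antibody recognised the V5 tag that the Foxr2 p53LOF electroporation vector adds to Foxr2. Foxr2 p53LOF (2 replicates) was a C57BL/6J neurosphere line grown from a mouse brain tumour made by in utero electroporation of a piggyBac vector with FOXR2 and of Cas9 with a guide against Trp53, so tagged Foxr2 was overexpressed from a vector in tumour cells. V5 control (2 replicates) was cell line material from a separate in utero electroporation model without the tag, also C57BL/6J, with the genotype H3.3G34R and the same antibody. All 4 samples were cross-linked in 0.1% formaldehyde for 1 minute. Control and Foxr2 p53LOF cells differ in genotype as well as in the tag, and these cannot be told apart. No source says that replicates were separate cultures, so the spread between them may be technical.

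The peak lists held 31909 and 38580 peaks in Foxr2 p53LOF replicates 1 and 2, and 308 and 124 peaks in V5 control replicates 1 and 2. The fold of a peak is the number of fragments at its summit plus 1, over the background plus 1, and that background was 1.26 and 2.04 fragments in the Foxr2 p53LOF replicates. A fold above 6, the minimum of the filter, therefore took 13 fragments in replicate 1 and 18 in replicate 2. Intervals beside folds are exact 95% Poisson intervals from those fragments and cover counting error only. A reproducible site is a stretch under filtered peaks of both replicates, and 11947 were found, with a median fold of 9.28 in replicate 1 and 10.8 in replicate 2. The lower of the 2 folds ranks a site, and percentiles are shares of all sites below it with ties split evenly.

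Foxr2 p53LOF replicate 1 had 31 peaks and replicate 2 had 41 peaks in the bodies of the 10 genes or within 10 kb of them. Neither V5 control replicate had a peak there, and 0.558% of all protein-coding genes had a control peak in the same kind of region. A fold above 6 took 16 fragments in control replicate 1 and 9 in control replicate 2. After the filter 17 peaks remained in each Foxr2 p53LOF replicate. All 38 peaks that were removed had a fold of 6 or less, and none was removed for a control overlap or for its length. The filtered peaks formed 16 reproducible sites at 9 of the 10 genes, Atrx being the exception, against 49.9% of all protein-coding genes with such a site. The same 9 genes had a promoter site, one within 1 kb of a protein-coding start of the gene, against 39.3% of all protein-coding genes. Since the genes were chosen with these peaks known, nothing is read from these shares.

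**Figure D1:**
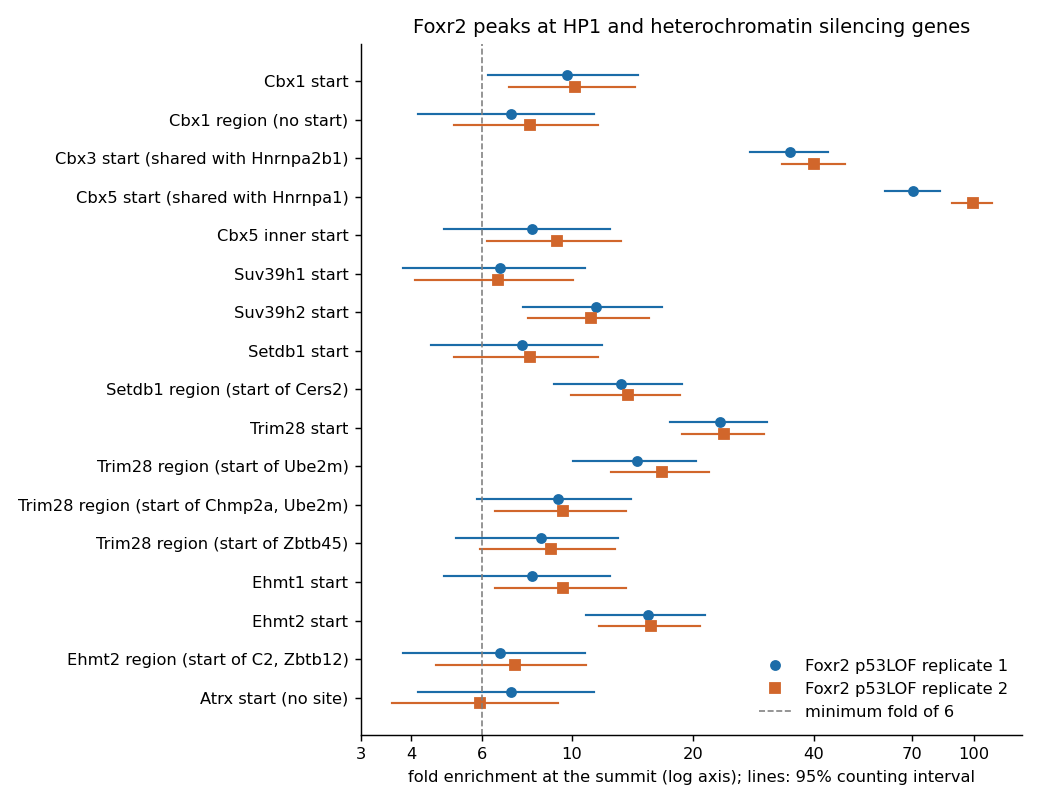
Fold enrichment (log axis) at each reproducible site in the body of a member or within 10 kb of it, and at the Atrx peaks, in Foxr2 p53LOF replicates 1 (circles) and 2 (squares), with 95% counting intervals as lines and the minimum fold of 6 dashed. Names in brackets are other genes with a start at the site. The Cbx5 start, at 70.7 and 99.2, stands to the right of the Cbx3 start at 34.9 and 40.1 and the Trim28 start at 23.4 and 24.0.

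Of the HP1 genes, Cbx5 and Cbx3 held the strongest sites of the 10 genes and Cbx1 a site of middle strength. Cbx5, which encodes HP1α, held a promoter site on mm10 at chr15:103238758-103243808 with a fold of 70.7 (95% interval 60.2 to 82.5, 159 fragments) in replicate 1 and 99.2 (88.4 to 111, 301 fragments) in replicate 2. This was the highest fold at any reproducible site in each replicate. The next sites by lower fold had 68.5 and 88.7 (with no protein-coding start within 1 kb) and 60.5 and 73.9 (at the starts of Cct3 and Tsacc). The 2 summits lay 10 bp apart, against a median of 87 bp over all sites. The rank depends on the control filter, as the site was number 10 when peaks that overlap a control peak were kept, and it was number 2 when folds were divided by the median of their chromosome.

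Cbx5 shares this promoter. Cbx5 runs on the minus strand from 103191544 to 103239816, and Hnrnpa1, which encodes an RNA-binding protein of splicing, runs on the plus strand from 103240432 to 103246692. Their first starts stand head to head and 616 bp apart. The replicate 1 summit lay between them, 301 bp upstream of the Cbx5 start and 315 bp upstream of the Hnrnpa1 start. In replicate 2 these distances were 311 bp and 305 bp. The site therefore cannot be assigned to Cbx5 over Hnrnpa1 by position.

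Cbx3, which encodes HP1γ, had the same arrangement with another hnRNP gene. Its promoter site at chr6:51466695-51473570 had a fold of 34.9 (27.7 to 43.4, 78 fragments) in replicate 1 and 40.1 (33.3 to 47.8, 121 fragments) in replicate 2, and was number 53 of all sites. Cbx3 runs on the plus strand from 51470360 to 51483704, and Hnrnpa2b1, for another RNA-binding protein, runs on the minus strand from 51460932 to 51469894. The starts are 466 bp apart and head to head. Both summits fell between them but closer to Cbx3, at 107 and 82 bp from its start and 359 and 384 bp from that of Hnrnpa2b1. The site covers both starts, so it cannot be assigned to Cbx3 over Hnrnpa2b1 by position either. The Cbx3 peaks were also long, at 6876 bp and 9685 bp. Of filtered peaks in replicates 1 and 2, 0.455% and 0.0807% were at least as long. The filter had removed all peaks of 10000 bp or longer, so these shares leave out the longest peaks. Of the 10 promoter sites of these genes, these 2 also hold the start of another protein-coding gene, and 14.4% of all promoter sites hold starts of at least 2 protein-coding genes.

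The DNA at these 2 summits is shown because both lie in the short stretch between divergent genes, and the Ehmt1 window is shown for contrast as the one richest in GC among the best promoter sites of the 9 members. Each is taken from GRCm38 (the mm10 build) around the replicate 1 summit, without exon sequence, and reads 5′ to 3′ along the member. Capitals mark CpG. The Cbx5 window is chr15:103240017-103240216 on the minus strand, the Cbx3 window is chr6:51470153-51470352 on the plus strand and the Ehmt1 window is chr2:24919360-24919553 on the minus strand.
Cbx5: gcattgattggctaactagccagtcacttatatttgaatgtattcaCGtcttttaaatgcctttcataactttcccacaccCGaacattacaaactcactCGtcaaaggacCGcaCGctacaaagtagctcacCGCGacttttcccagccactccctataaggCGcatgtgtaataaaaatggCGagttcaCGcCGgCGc
Cbx3: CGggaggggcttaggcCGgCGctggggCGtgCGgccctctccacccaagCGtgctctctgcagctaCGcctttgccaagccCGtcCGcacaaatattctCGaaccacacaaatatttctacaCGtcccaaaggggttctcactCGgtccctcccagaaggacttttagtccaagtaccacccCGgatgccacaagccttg
Ehmt1: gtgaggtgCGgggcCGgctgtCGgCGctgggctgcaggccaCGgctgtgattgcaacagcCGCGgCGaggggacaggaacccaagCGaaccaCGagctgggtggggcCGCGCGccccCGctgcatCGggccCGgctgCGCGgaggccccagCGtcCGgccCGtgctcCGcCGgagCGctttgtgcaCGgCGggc

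Cbx1, which encodes HP1β, had a fold near the middle of all sites. Its promoter site at chr11:96788523-96791018 had 9.72 (6.18 to 14.6, 21 fragments) in replicate 1 and 10.2 (6.98 to 14.4, 30 fragments) in replicate 2, at percentile 57.9. The summits lay 19 and 80 bp downstream of the nearest protein-coding start of the gene, in the 5′ UTR, and no other protein-coding gene starts within 1 kb. Another site, about 4 kb upstream at chr11:96785083-96785760, had folds of 7.07 and 7.88 with no protein-coding start near it. So the HP1 genes ran from Cbx5 through Cbx3 to Cbx1, and in each replicate the intervals of these 3 promoter sites did not overlap.

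Cbx5 also had an intronic site at chr15:103214090-103216899, with 7.95 (17 fragments) in replicate 1 and 9.20 (27 fragments) in replicate 2. It lies at a group of inner starts of the gene, and its summits were 829 and 546 bp downstream of the nearest one. At the far end of Hnrnpa1, replicate 2 had a peak of 6.24 that passed the filter alone, and replicate 1 peaks under it reached at most 4.86.

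Trim28 was the strongest gene outside the HP1 family. Its product, KAP1, is brought to DNA by KRAB zinc finger proteins and in turn recruits SETDB1 and HP1. The promoter site at chr7:13022632-13025240 had 23.4 (17.6 to 30.6, 52 fragments) and 24.0 (18.8 to 30.1, 72 fragments), and was number 380 of all sites. The summits were 121 and 51 bp downstream of the first protein-coding start, in the 5′ UTR. The other 3 sites in the Trim28 region lie at starts of its neighbours. They had 14.6 and 16.8 at Ube2m, 9.28 and 9.53 at a stretch near starts of Chmp2a and Ube2m, and 8.39 and 8.87 at Zbtb45.

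The genes for H3K9 methyltransferases lay lower, and their promoter sites spread over most of the scale. Ehmt2, which encodes G9a, had the highest, with 15.5 (10.8 to 21.4, 34 fragments) and 15.8 (11.7 to 20.9, 47 fragments) at chr17:34897113-34900437, percentile 87.5. Its summits lay upstream, at −152 and −184 bp from the start. A noncoding transcript of C2 starts 204 bp upstream on the other strand. A weaker site at the starts of C2 and Zbtb12 had 6.63 and 7.23. Ehmt1, which encodes GLP, the partner of G9a, had 7.95 (17 fragments) and 9.53 (28 fragments) at chr2:24918435-24920366, percentile 37.2, with summits in the intron 114 and 137 bp downstream of the nearest start. The intervals of Ehmt1 and Ehmt2 overlapped in each replicate (4.82 to 12.5 and 10.8 to 21.4 in replicate 1).

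Suv39h1 and Suv39h2 encode the enzymes that place H3K9me3 at pericentric repeats. Suv39h2 had 11.5 (7.59 to 16.7, 25 fragments) and 11.2 (7.79 to 15.6, 33 fragments) at chr2:3474130-3476098, percentile 70.02. Suv39h1 had 6.63 (14 fragments) and 6.57 (19 fragments) at chrX:8074358-8075030, percentile 10.3. That is 1 fragment above the minimum in each replicate, and its 2 summits lay 517 bp apart. These were the only 2 of the 16 sites with the higher fold in replicate 1.

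Setdb1, whose product is the H3K9 methyltransferase that TRIM28 recruits, had 7.51 (16 fragments) and 7.88 (23 fragments) at its promoter (chr3:95355965-95357613), percentile 29.4. A stronger site in its region, at chr3:95312355-95317215, had 13.3 and 13.8, but it covers the start of Cers2, a ceramide synthase gene. The 2 summits of that site lay 4174 bp apart, with that of replicate 2 outside the shared stretch.

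Atrx, which with DAXX places histone H3.3 at silent repeats, had no reproducible site. Replicate 1 had a peak over its start at chrX:105927838-105929712 with a fold of 7.07 (4.15 to 11.4, 15 fragments), which passed the filter. The replicate 2 peak at chrX:105928157-105929877 had 5.91 (3.58 to 9.27, 17 fragments) and missed the minimum by 1 fragment. The peaks overlap, so all 10 genes had overlapping peaks of both replicates before the filter, against 62.3% of all protein-coding genes when no minimum was set on fold or q, and nothing is read from that share. Suv39h1 just inside the minimum and Atrx just outside it thus differ by at most 2 fragments in a replicate, which is within counting error. Both are on chromosome X, where the median fold of reproducible sites was 7.95 in replicate 1 and 9.03 in replicate 2. On the autosomes the medians ran from 8.39 to 10.6 in replicate 1 and from 9.86 to 12.5 in replicate 2. The part of the chromosome in these low folds was not tested.

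**Figure D2:**
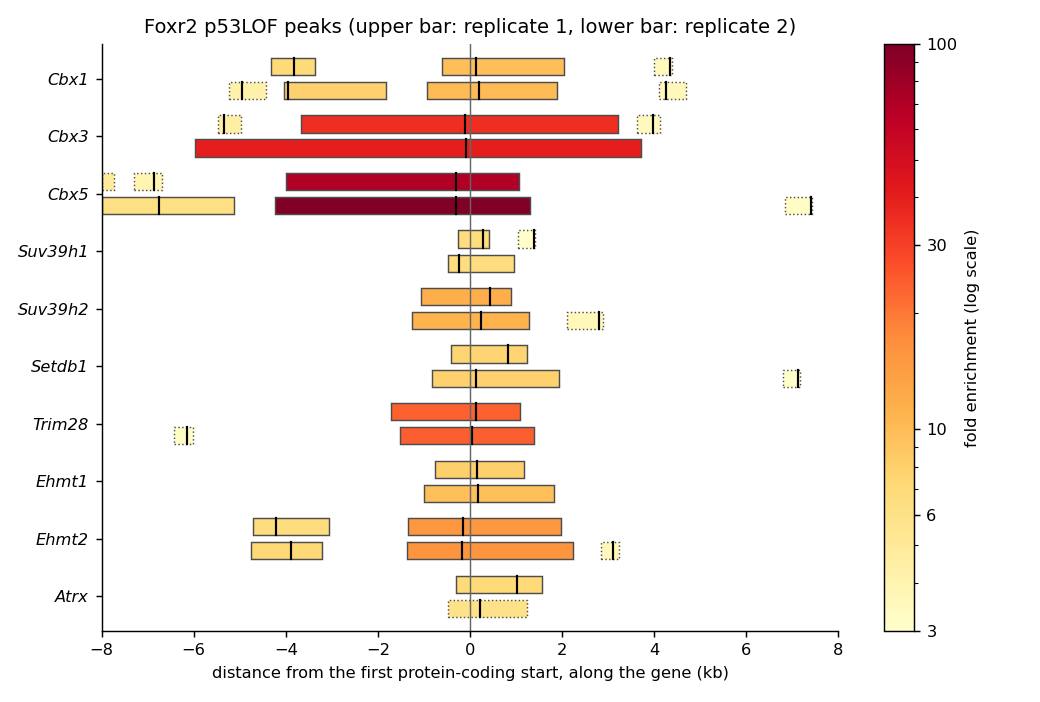
Peaks of Foxr2 p53LOF replicates 1 (upper bar) and 2 (lower bar) by distance from the first protein-coding start of each member, along the direction of the gene (kb), coloured by fold (log scale). Black ticks mark summits, solid outlines peaks that passed the filter and dotted outlines those that did not. Of the peaks drawn across a start, the Atrx peak of replicate 2, with a fold of 5.91, is the one that did not pass.

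Replicate 2 had the higher fold at 14 of the 16 sites of these genes, against 75.1% of all sites. The counting intervals of the 2 folds overlapped at 15 of the 16, against 97.9% of all sites. The exception was the Cbx5 promoter site, where the ratio of replicate 2 to replicate 1 was 1.40. Over all sites the median ratio was 1.16, and the middle 90% ran from 0.808 to 1.72, which includes the Cbx5 ratio. All other sites rest on fewer fragments, and counting error widens that range. It therefore cannot show whether the Cbx5 difference is usual. Summits of the 2 replicates were 10 to 4174 bp apart with a median of 161 bp, against a median of 87 bp over all sites. At 7 of the 16 sites they lay within 100 bp, against 52.97% of all sites.

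Set among all genes with a promoter site, the 9 members did not form a group of like strength. The median over the 9 of the lower fold of the best promoter site was 11.2, against 10.2 over all 8599 genes with a promoter site. Among those genes 5 members were above the median and 4 were below. Cbx5, Cbx3 (percentile 99.3), Trim28 (95.02) and Ehmt2 (82.0) led, followed by Suv39h2 (60.8), Cbx1 (47.2), Ehmt1 (26.9), Setdb1 (20.3) and Suv39h1 (6.28). Of the 10 genes, 3 (Cbx3, Cbx5 and Trim28) had a promoter site in the strongest 10% of all sites, which begins at a lower fold of 16.8 and which 5.91% of all protein-coding genes reach. With the best site of any kind in the region, the median over members was 13.3, against 10.6 over all genes with a site. The gap between 13.3 and 11.2 comes from Setdb1, whose best site is the one at Cers2.

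**Figure D3:**
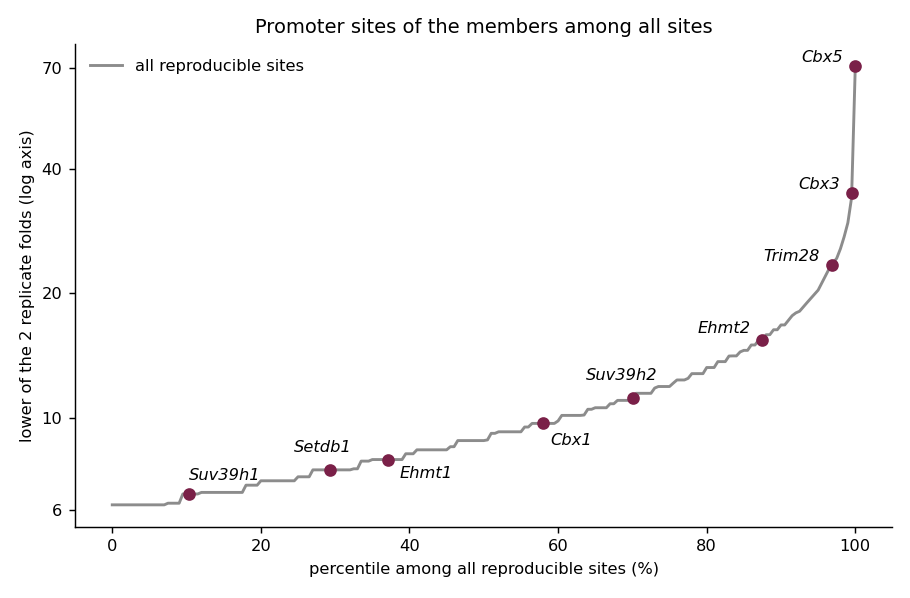
Lower of the 2 replicate folds (log axis) of all reproducible sites by percentile (grey line), with the best promoter site of each member as a point. The members lie along the whole curve, from Suv39h1 at percentile 10.3 to Cbx5 at its top.

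Levels of folds differed between chromosomes, so folds were also divided by the median of the sites on the same chromosome. The Cbx5 site was then 6.96 times its chromosome's median in replicate 1 and 8.63 times in replicate 2. The Cbx3 site was 3.59 times in each replicate, and the Trim28 site was 2.41 and 2.15 times. Suv39h1 was at 0.833 and 0.727 of the chromosome X median. The order of these 4 genes was the same as by fold. By the lower value Cbx1 (0.917 and 0.816) fell below Ehmt1 (0.9 and 0.935), the reverse of their order by fold.

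GC content at the summit was measured in the 200 bp around the replicate 1 summit of each promoter site. Over all 7807 promoter sites the median was 61.5% (quartiles 52.5% and 69%), and the 9 members' best promoter sites had a median of 68%. Cbx5 had the lowest of the 9, at 46% with 12 CpG, and 10.8% of all promoter windows were at or below it. Among the 1028 promoter windows in the strongest 10% of sites, whose median was 60.5%, 8.75% were at or below it. Cbx3 had 59.5% with 13 CpG. Setdb1 was also low in GC, at 53% with 6 CpG. Its replicate 1 summit lay in an intron, 780 bp downstream of the nearest start. The replicate 2 summit lay 698 bp away, 82 bp downstream of the start, and GC was not measured there. The highest was Ehmt1, at 76.5% with 26 CpG. The member with the strongest site was thus at the low end of GC content among the 9.

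**Figure D4:**
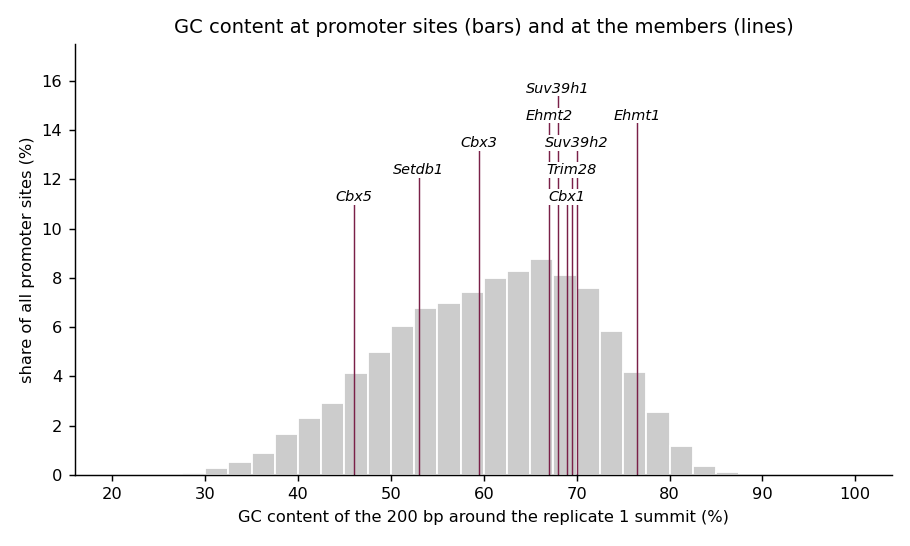
GC content (%) of the 200 bp around the replicate 1 summit, as the share (%) of all 7807 promoter sites in each bin (grey bars) and for the best promoter site of each member (lines, whose heights only place the names). Cbx5 at 46% and Setdb1 at 53% lie left of Cbx3 at 59.5%, and the other members lie between 67% and 76.5%.

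The same windows were searched on both strands for 8 strings of letters. CCAAT, the NFY box, was in 1 of the 9 members' windows, that of Cbx5, where it appears on the other strand as attgg near the left end of the sequence above, and it was in 15.4% of all promoter windows. GGGCGG, bound by SP and KLF factors, was in 3 (Cbx1, Trim28 and Ehmt2), against 34.7%. AAGATGGC, the YY1 string, was in 1 (Suv39h1), against 2.27%. The ETS strings CCGGAAG (5.24% of all promoter windows) and CCGGAA (11.8%, which includes every CCGGAAG) were in none of the 9, and neither were the forkhead string TGTTTAC (1.601%), the NRF1 string CGCATGCG (0.564%) or the CREB string TGACGTCA (0.320%). These counts say only which letters stand in these windows.

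The other genes of heterochromatin silencing were taken as 6 lists by function, 31 genes in all. Of these, 29 had a promoter site, against 39.3% of all protein-coding genes. The lists were chosen with earlier results of these data known, so nothing is read from that share. The median lower fold over the 29 was 10.2, the same as over all genes with a promoter site. No gene of the lists had a V5 control peak in its region. The HP1 partners had a promoter site at 7 of 7 genes. By the lower fold of that site they ran from Chaf1a (6.19 and 9.53) and Chaf1b (6.19 and 7.88), subunits of the histone chaperone CAF-1, to Pogz (16.8 and 22.7), an HP1-binding zinc finger protein. The SETDB1 and HUSH partners had one at 7 of 7, from Fam208a (7.51 and 9.86), the HUSH subunit TASOR, and Zfp57 (7.51 and 8.21), a KRAB zinc finger protein of imprinted regions, to Atf7ip (31.4 and 40.7), the SETDB1 cofactor. The highest of the 31 genes by lower fold was therefore a direct partner of SETDB1, while Setdb1 itself had 7.51 and 7.88.

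The G9a and GLP partners had a promoter site at 3 of 3 genes, from Zfp644 (7.95 and 10.8) to Cdyl (17.7 and 18.4), a chromodomain corepressor. The H4K20 methyltransferases had one at both genes, Kmt5b (9.72 and 9.20) and Kmt5c (11.05 and 23.3). The list of H3K9 demethylases had one at 6 of 6 genes. By lower fold they ran from Kdm1a (6.19 and 8.21) to Kdm3a (27.4 and 34.2). DNA methylation and silencing was the list with genes that lacked one, at 4 of 6 genes, from Hells (6.19 and 6.57), a chromatin remodeller, to Uhrf1 (11.5 and 13.8), which guides maintenance methylation. The 2 genes without a site were the de novo DNA methyltransferases. Dnmt3a had peaks of at most 4.42 in replicate 1 and 5.26 in replicate 2, below the minimum, and Dnmt3b had no peak in either replicate.

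**Figure D5:**
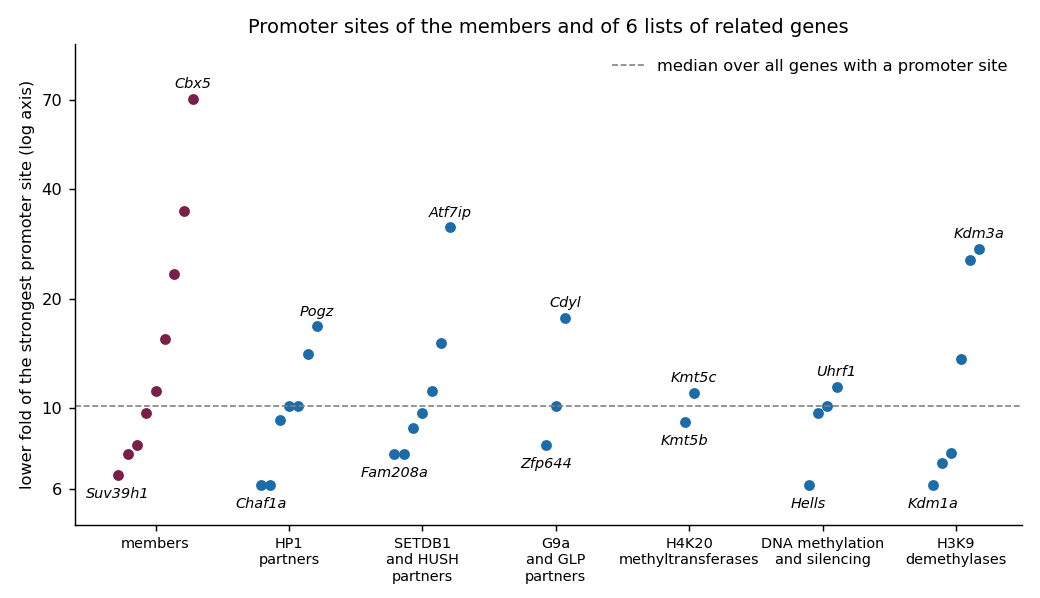
Lower of the 2 replicate folds (log axis) of the strongest promoter site of each gene, for the 9 members with one and for the 29 of 31 related genes with one, by list. Names mark the ends of each list (Chaf1b has the same value as Chaf1a, and Zfp57 the same as Fam208a), and the dashed line is the median of 10.2 over all genes with a promoter site. Cbx5 and Cbx3 lie above every related gene, of which Atf7ip at 31.4 is the highest.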

How the data were processed

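CUT&RUN with a V5 antibody was run on 2 Foxr2 p53LOF and 2 V5 control samples, grouped by their labels. The authors trimmed reads with Trimmomatic (0.39), aligned them to mm10 with BWA (0.7.17), removed duplicates with Picard (2.26.6) and called peaks per library with MACS2 (2.2.7.1), without pooling replicates. The deposited fold is a ratio of summit fragments to background, the −log10 of p and of q were deposited as MACS2 gave them within a library, and the deposited score is −log10 q times 10. The lists show no read totals, so precision comes from summit fragments.

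The background of each library was recovered as the value (0.3 to 4, steps of 0.0005) at which folds up to 30 give whole fragments (within 0.02) that match the deposited p, which held for 100% of such peaks. On simulated lists its largest error was 0.0151%, and 600 of 600 planted sites were recovered. The study's filter dropped peaks that overlap a control peak by at least 10 bp, have a fold or a −log10 q of 6 or less, or are 10000 bp or longer. Its further restriction to regions open in snATAC-seq was not applied here. Sites needed 1 bp shared by both replicates. Genes came from GENCODE M21 and sequence from GRCm38, with positions counted from 1. Python (3.11.15), numpy (2.4.6), scipy (1.17.1) and pysam (0.24.0) were used. The members, lists and comparisons were chosen with earlier results of these data known, so no test was run. Named beyond the members are genes that share a member's promoter, neighbours at other member sites, the ends of each list and genes without a site. Alternatives covered each filter, the regions, the replicates and chromosome scaling.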

Additional observations from a re-analysis of the deposited data

How the results depend on the processing

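The 5 main values and 3 others were recomputed under 16 alternatives. Of 128 values, 107 stayed within 1.5 times (counts), within the spread between replicates (folds) or equal (the rank). No member peak overlapped a control peak or reached the length limit, so those settings could not move the members' counts or folds. The flank settings likewise could not change promoter sites. With a minimum fold of 10, promoter sites remained at 5 members (19.8% of all genes), sites numbered 7 and the median lower fold of the best site was 19.4. Without a minimum on fold or q, sites numbered 26 at all 10 members (62.3% of genes) and the median was 12.2. A minimum −log10 q of 10 gave 14.4, gene bodies alone 11.2, and 50 kb flanks 16.3 with 38 sites. Dividing by the chromosome's median gave a median of 1.2 and 6.96 at the Cbx5 promoter site. Leaving out each replicate gave 12.4 to 13.8 for the median and 70.7 to 99.2 for Cbx5. Without Foxr2 p53LOF replicate 2 Atrx gained a site (10 members, against 53% of all genes). The Atrx peak of replicate 2, at 5.91, had missed the minimum fold, so leaving that replicate out adds the site by construction. No paired analysis was possible because the results come from no test. Folds near 6 rest on 13 to 19 fragments, so calls there move with single fragments.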

Other observations

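The 2 genes that share a promoter with an HP1 gene, Hnrnpa1 and Hnrnpa2b1, belong to the hnRNP A family of RNA-binding proteins. After these values were seen, the other members of that family were looked up. Hnrnpa0 had a promoter site with a fold of 19.4 in replicate 1 and 26.0 in replicate 2, and Hnrnpa3 had one with 12.8 and 17.4. Neither shares its site with the start of another protein-coding gene. Of the HP1 genes, Cbx1, which has no hnRNP gene at its start, had 9.72 and 10.2. Over all genes with a promoter site (39.3% of protein-coding genes) the median lower fold was 10.2. Since the family was chosen after its values were seen, nothing is read from these values. Expression of these genes was not analysed here.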
